A study of Mus musculus with 12 samples.

Results

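The Pde4 family consists of 4 mouse genes, Pde4a, Pde4b, Pde4c and Pde4d, of the 22380 protein-coding genes of GENCODE M1, and each was followed on mm9 from 2000 bp upstream of its start to its end. The family was chosen by the methylation difference between NP-MTAza and PBS cells in a stretch of a Pde4b intron, so values and counts of that contrast are given here only as a description, and nothing is read from them. DNA methylation (DNAme) was measured by reduced representation bisulfite sequencing (RRBS), in which DNA is cut by MspI at CCGG and bisulfite conversion separates methylated from unmethylated cytosines. All libraries came from PKD1-Het cells, renal proximal tubule epithelial cells heterozygous for Pkd1 that carry the SV40 large T antigen. They derive from mice of the genotype Pkd1 flox/-:TSLargeT and were used at passage 3, and all groups share this 1 cell line. PBS cells received PBS as a control for 24 h. Aza cells received 50 µM 5-aza-2′-deoxycytidine, an inhibitor of DNA methyltransferases. F-MTAza cells received 50 µM Aza with 300 µM metformin, which activates AMP-activated protein kinase, and 10 µM tolvaptan, a vasopressin receptor antagonist, as free drugs. NP-MTAza cells received the same doses in micelle nanoparticles. Each of the 4 groups had 3 libraries, and nothing in the labels says that they came from separate cultures, so their spread may be technical.

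Summed over the listed CpGs, the reads came to 25259953 to 65680763 per library, with a median of 7 to 9 reads per CpG. A read is counted in these sums once for each CpG it covers, so they are not numbers of sequenced reads. Aza replicates 1 and 2 were left out because their CpG levels did not follow any other library, with correlations between -0.00255 and 0.00277 in 21 pairs, against 0.642 to 0.913 in the 45 pairs of the other 10 libraries. Aza is therefore represented by replicate 3 alone, with no test. Across the 11633 genes with at least 20 shared CpGs and 100 reads in each library, the median level was 62.0% in PBS, 40.6% in F-MTAza and 39.5% in NP-MTAza, so the members were read against a genome that had lost methylation nearly everywhere. As a check of cell type, the starts of marker genes in PBS gave a mixed picture. Of 4 tested epithelial genes, 2 had a start window under 10%, among them Pax8, a transcription factor of the kidney tubule, at 1.12%, whereas Krt18, a keratin, was at 44.7% and Cdh1, which encodes E-cadherin, at 88.9%. None of 4 proximal tubule genes had such a window, with Lrp2 and Cubn, the endocytic receptors, at 20.3 and 84.3% and Hnf4a at 63.2 to 84.7%. Aqp2, of the collecting duct, was at 83.5%. Of 3 genes of other cells, Pecam1 was at 89.4 and 97.3%, Pdgfrb at 71.3% and Col1a1 at 14.7 and 84.7%. These levels alone do not identify the cell type, and methylation does not measure whether a gene is transcribed.

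PDE4 enzymes hydrolyse cAMP, the messenger made by adenylate cyclases downstream of the vasopressin receptor that tolvaptan blocks. Each gene encodes long and short isoforms from alternative starts spread along the gene, and the long isoforms carry upstream conserved regions through which protein kinase A raises their activity. In polycystic kidney disease, cAMP drives fluid secretion into cysts and proliferation of the cyst epithelium. Pde4c protein is known from the primary cilium of renal epithelial cells, where it forms a complex with an A-kinase anchoring protein and polycystin-2. Pde4b is best known in inflammatory signalling of leukocytes, and Pde4a and Pde4d are expressed broadly, including in brain.

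The members differed in size and in how much of them was read. Pde4a (ENSMUSG00000032177.10) lies at chr9:20970158-21017692 and covers 47535 bp. Pde4c (ENSMUSG00000031842.7) is the shortest, with 27467 bp at chr8:73247619-73275085. Pde4b (ENSMUSG00000028525.9) covers 519717 bp at chr4:101760148-102279864, and Pde4d (ENSMUSG00000021699.10) covers 1503528 bp at chr13:109240142-110743669. CpGs were called shared when at least 2 of 3 libraries of PBS, F-MTAza and NP-MTAza held 5 or more reads. Shared CpGs made up 12.1% of the 887 CpGs of Pde4a and 14.0% of the 508 of Pde4c, but 3.04% of the 3723 of Pde4b and 2.52% of the 12045 of Pde4d. Between 94.4% and 99.1% of each gene's shared CpGs lay within 150 bases of a CCGG site, so the values describe the MspI-rich parts of these genes.

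The stretches that the results turn on are printed from mm9, plus strand, 5′ to 3′, each 300 bases long, with the shared CpGs in capitals and all else in lower case. The first is the end of the Pde4b intron stretch that set the family apart (chr4:102250266-102250565). The second lies 1585 to 1286 bases before the start of Pde4a-001 and is a densely read stretch of an unmethylated start (chr9:20968573-20968872). The third lies 310 to 11 bases before the start of Pde4d-012, within a start of intermediate level (chr13:110693000-110693299). The fourth is a densely read stretch of Pde4c intron 6, a methylated gene body (chr8:73268159-73268458).
Pde4b intron: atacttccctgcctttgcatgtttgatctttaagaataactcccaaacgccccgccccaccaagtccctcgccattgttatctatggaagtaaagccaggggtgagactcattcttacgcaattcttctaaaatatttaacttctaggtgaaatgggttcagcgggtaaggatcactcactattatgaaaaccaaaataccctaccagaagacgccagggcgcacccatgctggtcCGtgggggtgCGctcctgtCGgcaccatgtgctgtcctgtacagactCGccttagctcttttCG
Pde4a start 1: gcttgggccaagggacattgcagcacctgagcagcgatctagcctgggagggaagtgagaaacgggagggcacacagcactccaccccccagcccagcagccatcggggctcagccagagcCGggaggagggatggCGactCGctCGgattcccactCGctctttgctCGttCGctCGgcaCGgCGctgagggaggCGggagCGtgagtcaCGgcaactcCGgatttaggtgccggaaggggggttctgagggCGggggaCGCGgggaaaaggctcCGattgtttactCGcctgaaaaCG
Pde4d start 10: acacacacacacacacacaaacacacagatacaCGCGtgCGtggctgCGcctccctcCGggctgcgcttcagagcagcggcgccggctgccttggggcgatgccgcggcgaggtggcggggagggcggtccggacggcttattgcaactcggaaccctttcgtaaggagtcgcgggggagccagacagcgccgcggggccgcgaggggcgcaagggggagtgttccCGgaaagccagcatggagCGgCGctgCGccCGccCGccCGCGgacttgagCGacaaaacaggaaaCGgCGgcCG
Pde4c intron 6: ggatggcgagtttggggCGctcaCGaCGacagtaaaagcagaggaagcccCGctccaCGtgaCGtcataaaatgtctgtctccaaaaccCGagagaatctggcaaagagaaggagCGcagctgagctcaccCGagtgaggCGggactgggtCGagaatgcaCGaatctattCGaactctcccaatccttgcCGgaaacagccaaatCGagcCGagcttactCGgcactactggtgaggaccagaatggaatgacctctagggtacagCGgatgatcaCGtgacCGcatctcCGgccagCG

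In the Pde4a stretch, 20 shared CpGs were at 0 to 2.36% in every one of the 10 libraries, and the drug-treated libraries lay within the range of PBS. In the Pde4d stretch, 17 shared CpGs were at 15.9, 19.4 and 24.8% in PBS and at 7.83, 4.15 and 6.21% in F-MTAza, with no overlap. In the Pde4c stretch, 22 shared CpGs were at 92.2, 97.5 and 94.9% in PBS, and the F-MTAza libraries were lower at 81.6, 73.8 and 63.5%. That Pde4c stretch also holds TGACGTCA from its base 60, the letters of the palindromic cAMP response element. Its CpG was at 100, 100 and 100% in PBS over 16, 6 and 15 reads, and at 60, 77.8 and 85.7% in F-MTAza over 5, 9 and 7 reads. In NP-MTAza replicates 1 and 2 it was at 76.9 and 66.7%, and replicate 3 had no value. Of 17 TGACGTCA matches in the 4 genes, this was the 1 whose CpG was shared. Over the autosomes, 758 such CpGs were shared, with median levels of 75% in PBS and 40.8% in F-MTAza. None of the 44 distinct windows of 300 bases, from 250 before to 50 after a Pde4 transcript start, held TGACGTCA, which 1.94% of 69933 such windows of all protein-coding genes held. The shorter CGTCA, searched on both strands and contained in TGACGTCA, was in 7 of the 44 windows and in 21.7% of all. A match is a run of letters and not a shown binding site.

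Over whole genes, PBS cells had the highest DNAme at Pde4c and the lowest at Pde4a, and F-MTAza libraries lay below every PBS library at all 4 members. Pde4a was at 51.7, 52.6 and 50.1% in PBS and at 33.5, 37.7 and 39.3% in F-MTAza over 107 shared CpGs. The difference of -14.7 points was the smallest of the family. It was -11.5 points with 10 reads per CpG, where the groups were no longer separated (exact permutation p = 0.60), and -9.03 points in CpGs of all 9 libraries. Pde4b was at 68.1, 77 and 66.5% in PBS and at 47.6, 41.9 and 43.2% in F-MTAza over 113 shared CpGs, and fell by 26.3 points. Pde4c was at 90.6, 95.2 and 90.6% in PBS and at 72.1, 64.5 and 61.0% in F-MTAza over 71 shared CpGs, and fell by 26.2 points. Pde4c was the most methylated member in F-MTAza too. Pde4d was at 71.9, 77.6 and 68.8% in PBS and at 46.5, 42.6 and 42.5% in F-MTAza over 304 shared CpGs, and fell by 28.9 points. The two-sided exact permutation p was 0.10 for each gene, the smallest that 3 libraries against 3 can give. The median change over the 11633 genes was -20.1 points, with quartiles of -25.9 and -11.8. The F-MTAza mean was below the PBS mean in 98.0% of these genes, so a lower level at all 4 members does not set the family apart. The share of these genes with every F-MTAza library below every PBS library is not given here. Over the starts, exons and introns of all genes tested below, that share was 74.7%. As a share of the PBS level, F-MTAza kept 71.5% at Pde4a, 62.7% at Pde4b, 71.5% at Pde4c and 60.2% at Pde4d, and the median gene kept 66.3%.

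**Figure D1:**
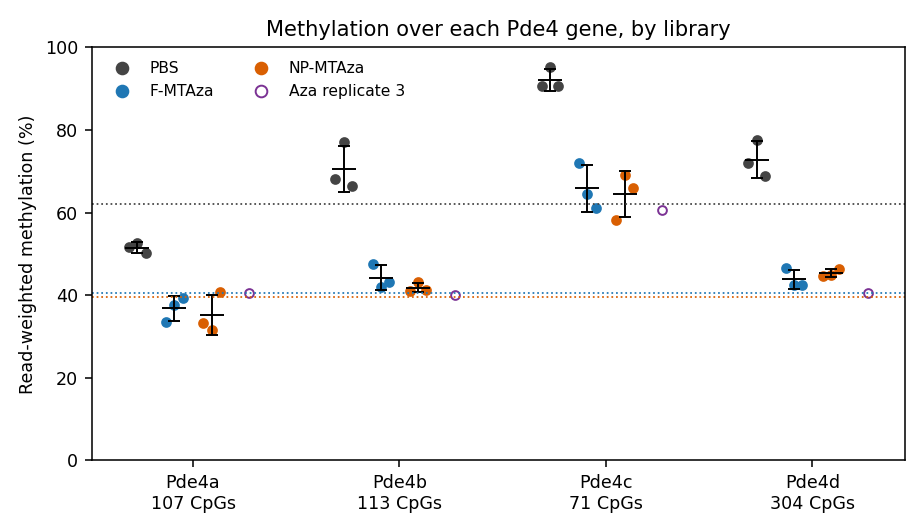
Read-weighted methylation (percent, y axis) over the shared CpGs of each Pde4 gene (x axis), 1 point per library, with bars for the mean ± SD of 3 libraries and dotted lines for the median of 11633 genes in PBS, F-MTAza and NP-MTAza. The F-MTAza and NP-MTAza libraries lie below all PBS libraries at each gene, and Pde4c stays highest, with a mean of 65.9% in F-MTAza. The share of all genes separated in this way is not given.

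In PBS, the order of the levels was Pde4c, Pde4d, Pde4b and Pde4a. The neighbours Pde4d, with 72.8% ± 4.43, and Pde4b, with 70.5% ± 5.64 (SD, n = 3 each), did not differ beyond their spread. Pde4c, with 92.1% ± 2.64, and Pde4a, with 51.5% ± 1.29, stood apart from them.

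Pde4a also held the most CpGs with little methylation in PBS when the shared CpGs were divided by their pooled PBS level. At Pde4a, 59 of 107 CpGs were under 20% in PBS, against 17 of 113 at Pde4b, 1 of 71 at Pde4c and 50 of 304 at Pde4d. The 59 Pde4a CpGs averaged 3.61% ± 1.87 in PBS and 3.64% ± 1.13 in F-MTAza (SD, n = 3). CpGs at 80% or more in PBS numbered 37, 57, 59 and 189 in Pde4a to Pde4d, and in F-MTAza they averaged 70.9%, 59.9%, 70.3% and 58.0%. Of these highly methylated CpGs, 36, 54, 59 and 188 were lower in pooled F-MTAza reads, and the share over the genome is not given here. Since the classes were cut on PBS values, part of each difference can come from counting error in PBS, and no test was made.

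Alternative starts showed levels that ranged from almost unmethylated to almost fully methylated within the same gene. Start windows ran from 2000 bp upstream to 500 bp downstream, transcript starts within 500 bp were joined, and windows were numbered in the order of transcription. Of 31 start windows, 15 held a shared CpG and 7 met the minimum of 3 shared CpGs and 20 reads in each of 9 libraries. They were tested with all other starts, exon sets and introns of the genome by limma. A call required a Benjamini-Hochberg adjusted p below 0.05 and a difference of at least 10 points. In F-MTAza against PBS, 6 of the 7 start windows fell and none rose, where 41.8% of 14158 start windows of all genes fell and 0.00706% rose. These comparisons share their PBS libraries with the one that chose the family. The window that was not called, Pde4a start 1, was below 10% in each PBS library and so could not be called lower. The calls at Pde4a start 3 and Pde4c start 3 held in all 9 fits that left out a library, and those at the other 4 starts did not.

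Pde4a start 1, at the coding transcript Pde4a-001, was at 6.74, 8.31 and 8.53% in PBS and at 6.82, 5.04 and 3.24% in F-MTAza. These 61 CpGs overlapped between the groups and did not pass, with a difference of -2.83 points (limma adjusted p = 0.244). Pde4a start 3, at the coding transcript Pde4a-002 and the non-coding Pde4a-005, was at 95.2, 93.6 and 96.7% in PBS. In F-MTAza it was at 68.0, 74.0 and 73.1% (limma adjusted p = 0.000108), with all treated libraries below all PBS libraries. The 2 starts of this gene thus stood at opposite ends of the range in PBS, and whether their responses differed was not tested.

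Pde4d start 10, which serves the coding Pde4d-011 and the non-coding Pde4d-012, was at 23.1, 29.2 and 18.2% in PBS and at 12.6, 12.6 and 14.4% in F-MTAza over 39 CpGs (limma adjusted p = 0.0235). Pde4d start 4, at the coding Pde4d-005, was at 19.3, 40.0 and 12.4% in PBS and at 5.88, 10.6 and 7.90% in F-MTAza over 8 CpGs (limma adjusted p = 0.0412). Both groups of libraries were separated at each of these starts, but the PBS libraries themselves spread widely at start 4. Pde4d start 11, at the non-coding Pde4d-017, was at 82.3, 96.3 and 80.2% in PBS and at 71.4, 66.1 and 37.5% in F-MTAza (limma adjusted p = 0.0443). Each of these 3 calls was lost when any 1 of several libraries was left out. For start 10, limma adjusted p was 0.0527 to 0.0641 when replicate 1 or 2 of either F-MTAza or PBS was left out, and the difference was -7.44 points without PBS replicate 2. For start 4, it was 0.0531 to 0.155 without PBS replicate 1 or 2, NP-MTAza replicate 2 or any F-MTAza replicate, and the difference was -7.69 points without PBS replicate 2. For start 11, limma adjusted p was 0.0504 to 0.173 without any PBS replicate, F-MTAza replicate 2 or 3, or NP-MTAza replicate 3.

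Pde4b start 1, at the long coding transcript Pde4b-003, was at 72.5, 73.3 and 79.8% in PBS and at 78.3, 30.1 and 42.2% in F-MTAza over 18 CpGs (limma adjusted p = 0.0453). F-MTAza replicate 1 lay within the range of PBS here, and without it the difference was -39.1 points (limma adjusted p = 0.000345). Without any other library the call was lost, with adjusted p from 0.0596 to 0.177 and differences from -26.4 to -15.0 points. Pde4c start 3, at the non-coding Pde4c-003, was at 88.9, 91.2 and 86.4% in PBS and at 60.9, 43.3 and 69.7% in F-MTAza (limma adjusted p = 0.00139), with no overlap.

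Starts below the read minimum are given as values only. Pde4b start 6, which serves the short coding transcripts Pde4b-002 and Pde4b-201, was at 11.9, 0 and 13.2% in PBS over 84, 6 and 151 reads and at 9.09, 12.5 and 24.3% in F-MTAza. These libraries overlapped, and the start was low in every library. Pde4c start 1, at the coding Pde4c-001, Pde4c-002 and Pde4c-005, was at 37.8, 36.0 and 41.0% in PBS and at 21.4, 23.1 and 15.6% in F-MTAza over 4 CpGs. The remaining windows with a shared CpG held 1 to 6 of them, and 16 windows held none, among them Pde4b start 2 at Pde4b-001 and Pde4d start 3 at Pde4d-003.

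**Figure D2:**
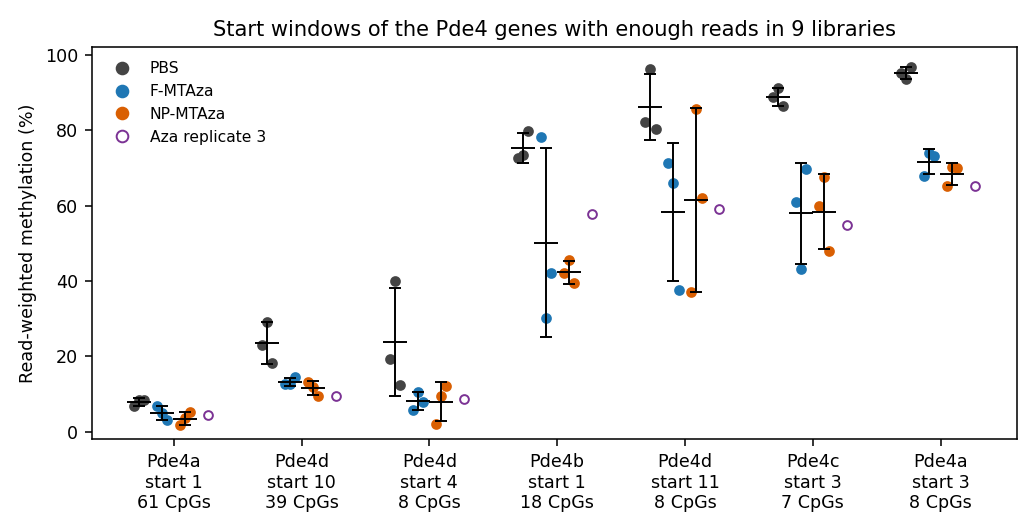
Read-weighted methylation (percent, y axis) of the 7 tested start windows of the Pde4 genes (x axis, in order of PBS level), 1 point per library, with bars for the mean ± SD of 3 libraries. Pde4a start 1 is below 10% in each library shown, whereas Pde4a start 3 falls from 95.2% in PBS to 71.7% in F-MTAza on average.

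Along the gene bodies, 20 of 21 tested introns fell in F-MTAza, and the exon sets of Pde4b and Pde4c fell while that of Pde4a did not pass (limma adjusted p = 0.0691). Pde4a exons were at 85.7, 74.1 and 88.4% in PBS and at 57.4, 75.7 and 70.5% in F-MTAza, and they passed without PBS replicate 2 (limma adjusted p = 0.0391) or NP-MTAza replicate 1 (limma adjusted p = 0.0421). The intron that did not pass was Pde4a intron 1, at 47.6, 26.5 and 52.2% in PBS and at 35.2, 6.52 and 40.0% in F-MTAza (limma adjusted p = 0.188). Introns were taken between the joined exons of all transcripts and numbered from the gene start. In all, 28 of the 31 tested starts, exon sets and introns of the family fell, and none rose. Over the genome, 71.5% of 41607 fell and 0.00481% rose, made up of 86.5% of introns, 87.6% of exon sets and 41.8% of starts, so the family count was not far from the background. The median change was -27.0 points over the 31 members' parts and -24.3 points over all. By gene, 1 of 4 tested parts fell in Pde4a, 8 of 8 in Pde4b, 3 of 3 in Pde4c and 16 of 16 in Pde4d. Those of Pde4a include its start 1, which was too low in PBS to be called lower. In 27 of the 31, every F-MTAza library was below every PBS library, against 74.7% of all parts tested.

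Among the tested parts, the largest loss was in Pde4d intron 11, which was at 85.9, 92.5 and 88.3% in PBS and at 51.9, 37.3 and 47.1% in F-MTAza over 20 CpGs (limma adjusted p = 6.67e-05). Pde4d introns 10, 19, 27 and 31, with 1 to 3 shared CpGs and no test, had larger differences, from -64.1 to -48.7 points. As a description, NP-MTAza differed from PBS at these 4 introns by -28.2, 4.79, -36.2 and -25.3 points. At intron 19, F-MTAza had values in replicates 2 and 3 only, over 14 and 17 reads. Next among the tested parts was Pde4d intron 4, with 88.5% ± 0.908 in PBS and 48.7% ± 10.9 in F-MTAza (SD, n = 3; limma adjusted p = 0.000149). Among the Pde4b introns, intron 11 was at 95.7, 95.8 and 100% in PBS and at 63.1, 72.0 and 48.2% in F-MTAza (limma adjusted p = 0.000271). Pde4b intron 14 was at 90.8, 95.7 and 92.4% in PBS and at 85.4, 75.4 and 44.2% in F-MTAza (limma adjusted p = 0.0220), and its call was lost without PBS replicate 2 (adjusted p = 0.0772) and without F-MTAza replicate 3 (adjusted p = 0.0676). Pde4c intron 6, with 38 shared CpGs, was at 94.6% ± 1.76 in PBS and 71.3% ± 5.79 in F-MTAza (SD, n = 3; limma adjusted p = 0.000297).

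Some introns were already at intermediate levels in PBS. Pde4b introns 1, 3 and 4, which lie in the first part of the gene, were at 50.8, 59.3 and 56.9% on average in PBS. Pde4b introns 11 and 14 were at 97.2 and 93.0%. Pde4d introns 5 and 6 were at 44.3 and 57.0% in PBS, whereas the other 11 tested Pde4d introns were at 77.7 to 93.5%. In F-MTAza, Pde4d intron 5 was at 26.8% ± 7.26 (SD, n = 3; limma adjusted p = 0.00981) and Pde4b intron 4 at 30.1% ± 4.75 (SD, n = 3; limma adjusted p = 0.000708).

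**Figure D3:**
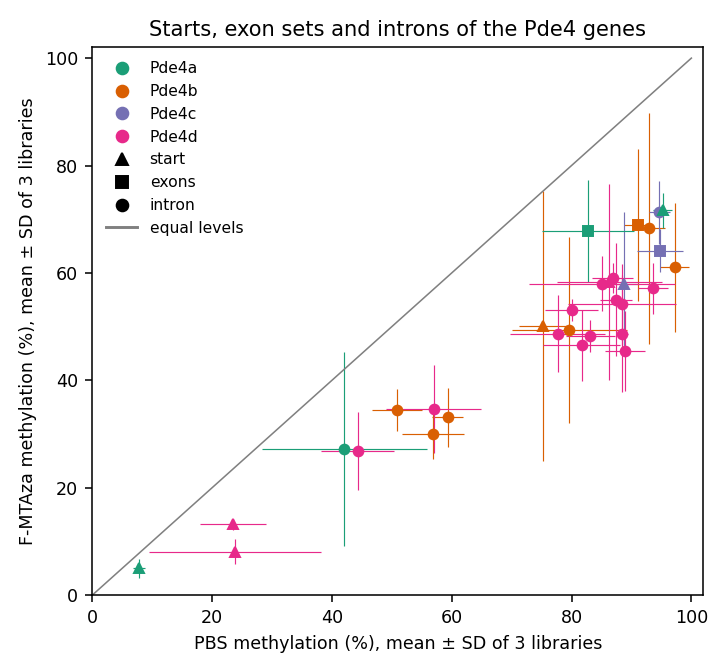
Mean methylation (percent) in PBS (x axis) and F-MTAza (y axis) of the 31 tested starts, exon sets and introns of the Pde4 genes, coloured by gene and shaped by kind, with bars for the SD of 3 libraries and a line of equal levels. All points lie below the line, and those nearest to it include Pde4a start 1, with 7.86% in PBS and 5.03% in F-MTAza.

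Bins of 100 kb along the long members showed the same steps. In Pde4b, the 4 bins over the first 400 kb averaged 56.9 to 59.7% in PBS, and the bin from 400 to 500 kb averaged 83.2% ± 8.44 (SD, n = 3). In F-MTAza the first 4 bins averaged 30.4 to 41.5%, and the bin from 400 to 500 kb averaged 55.2% ± 3.43 (SD, n = 3). In Pde4d, the bins from 500 to 600 and from 600 to 700 kb were at 45.2% ± 6.55 and 50.5% ± 3.41 in PBS (SD, n = 3), whereas all measured bins before them were at 80.3% or more. The bin from 1400 to 1500 kb, which holds the low start 10, was at 55.5% ± 10.3 in PBS and 31.3% ± 3.78 in F-MTAza (SD, n = 3). F-MTAza libraries lay below every PBS library in all bins shown but the one from 300 to 400 kb of Pde4b. Bins were made for these genes only, and over all tested parts of the genome 74.7% were separated in this way.

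**Figure D4:**
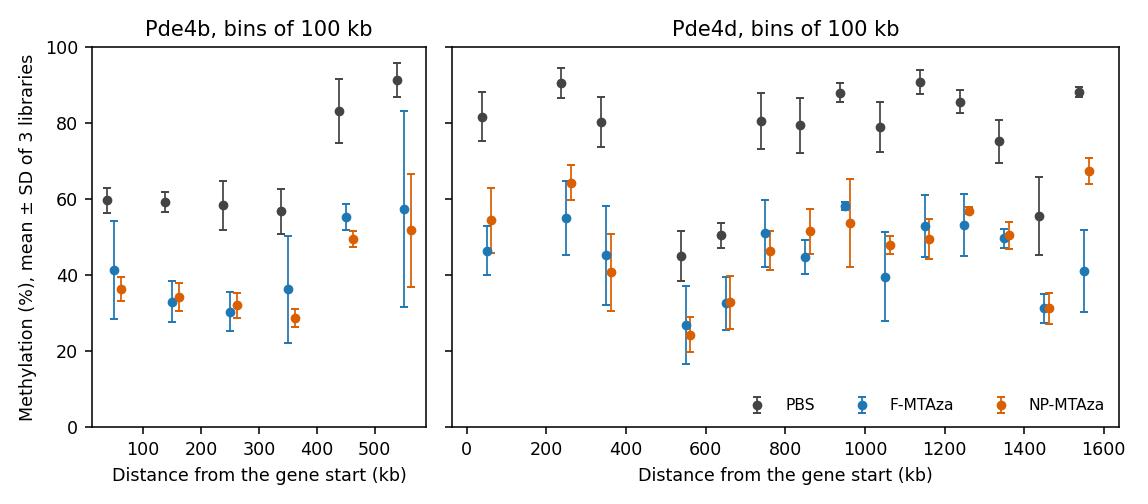
Mean methylation (percent, y axis, bars for the SD of 3 libraries) in bins of 100 kb by distance from the gene start (kb, x axis) in Pde4b and Pde4d, for bins with at least 3 shared CpGs and 20 reads in each library. PBS is lower over the first 400 kb of Pde4b and from 500 to 700 kb of Pde4d than in the bins next to them, and the treated groups lie below PBS throughout.

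The stretch of Pde4b that set the family apart, chr4:102250186-102250565, spans 380 bp. It lies in intron 6 of the coding transcripts Pde4b-001 and Pde4b-006, in intron 8 of Pde4b-003 and in intron 1 of the short Pde4b-002 and Pde4b-201, which is intron 15 in the numbering used above. It joins 8 CpGs called in NP-MTAza against PBS, whose mean difference was -64.2 points. Over its 6 shared CpGs, PBS libraries were at 100, 98.5 and 98.0%, NP-MTAza libraries at 41.1, 35.4 and 19.4%, and F-MTAza libraries at 60, 47.6 and 65.7%. The F-MTAza libraries thus lay below every PBS library. The NP-MTAza values are those that chose the stretch, so no order of the groups is read from them. F-MTAza replicate 1 had 5 reads there, which gives a 95% Wilson interval of 23.1 to 88.2% for its 60%, and at the shared CpGs of the printed 300 bases it had none. Over every CpG listed in each library, F-MTAza was at 86.7, 50.0 and 62.5% over 15, 74 and 48 reads, so its replicate 1 stood higher, and the difference from PBS was -31.4 points. F-MTAza was 41.0 points below PBS (two-sided exact permutation p = 0.10, the smallest possible), and this comparison shares its PBS libraries with the one that chose the stretch. Aza replicate 3 was at 68.8% over 16 reads (Wilson interval 44.4 to 85.8%), all at 1 of the CpGs. Intron 15 as a whole missed the read minimum in F-MTAza replicate 1 and had no test.

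The last CpG inside the stretch was at 100, 100 and 100% in PBS and at 61.5, 38.5 and 6.67% in NP-MTAza. The first CpG beyond it, 11 bases on, was at 100 and 100% in PBS replicates 1 and 2 and at 33.3, 9.09 and 0% in NP-MTAza. It was not tested because PBS replicate 3 had no value there, so the edge of the stretch followed the coverage. Further on, the CpG at 722 bases from the first was at 83.3, 83.3 and 33.3% in NP-MTAza, over 6 reads in each library.

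**Figure D5:**
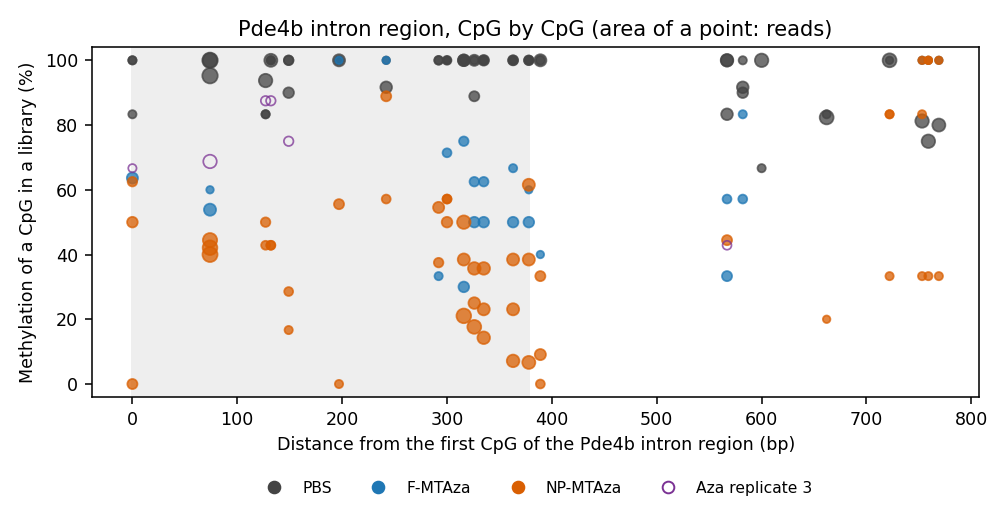
Methylation of each CpG in each library (percent, y axis) against its distance from the first CpG of the Pde4b intron stretch (bp, x axis), with the area of a point proportional to its reads and the stretch shaded. Inside the stretch PBS points lie at 83.3% or more, and F-MTAza points are few, with some of replicate 1 at 100%. NP-MTAza points lie below those of PBS at the same CpG, with replicate 3 ranging from 0 to 88.9%.

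At the level of single CpGs, differentially methylated CpGs (DMCs) were called by a likelihood ratio test on pooled reads with a Benjamini-Hochberg q below 0.01 and a difference of at least 35 points. In F-MTAza against PBS, 63 of 231 tested CpGs of the family were lower and none was higher, where 22% of the 512170 CpGs of the genome were lower and 0.00449% higher. By gene, they were 1 of 38 in Pde4a, 12 of 35 in Pde4b, 10 of 47 in Pde4c and 40 of 111 in Pde4d. Of the tested CpGs, 23 in Pde4a, 2 in Pde4b, 2 in Pde4c and 14 in Pde4d were below 35% in PBS and so could not be called lower, and the difference between the genes was not tested. This test pools reads and ignores the spread between libraries. With an overdispersion correction and an F test, 0 of the 231 passed, as did 0 over the genome, and 107 had an unadjusted p below 0.05, each of them lower in F-MTAza. Over the genome, 201469 of the 512170 CpGs had an unadjusted p below 0.05 by this F test.

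As a description of the contrast that chose the family, NP-MTAza against PBS gave 99 lower DMCs of 362 tested in the members, with 25.9% lower and 0.00479% higher over the genome. They numbered 7 of 54 in Pde4a, 22 of 62 in Pde4b, 18 of 63 in Pde4c and 52 of 183 in Pde4d. In the same contrast 28 of the 31 starts, exon sets and introns were lower by the call used above, with 73.2% lower and 0.00721% higher over the genome. Levels over the genes in NP-MTAza were 33.2, 31.5 and 40.7% at Pde4a and 41.1, 43.1 and 41.3% at Pde4b. They were 58.3, 69.0 and 66.0% at Pde4c and 44.5, 44.9 and 46.4% at Pde4d. F-MTAza and NP-MTAza libraries overlapped at Pde4a, Pde4c and Pde4d, and at Pde4b only NP-MTAza replicate 2 lay within the F-MTAza range.

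The direct comparison of micelle with free delivery gave no call at the members, and the CpGs and parts of Pde4b among them belong to the gene chosen on NP-MTAza values. Over whole genes, NP-MTAza differed from F-MTAza by -1.66 points at Pde4a (exact permutation p = 0.70), -1.45 points at Pde4c (exact permutation p = 0.80) and 1.47 points at Pde4d (exact permutation p = 0.40), and by -2.40 points at Pde4b, which was not tested. None of the 31 parts and none of 337 CpGs were called, where 0.0204% of 717065 CpGs were called lower and 0.0106% higher over the genome, and 0.0024% of all parts were called lower. Of the 31 parts, 0 had an unadjusted limma p below 0.05, against 2569 of 41607 parts over the genome. Of the 337 CpGs, 39 had an unadjusted p below 0.05 by the likelihood ratio test, 20 of them lower in NP-MTAza, and 6 did so by the F test. Of the 717065 CpGs of the genome, 83860 did so by the likelihood ratio test and 10699 by the F test. For the parts of Pde4a, Pde4c and Pde4d, limma adjusted p ran from 0.876 to 1.00, which does not show that the groups were equal. The widest gap among these tested parts was 8.99 points, in Pde4d intron 8. In untested parts of these genes the gap ran from -15.55 points at Pde4a intron 15 to 68.9 points at Pde4d intron 19, over 3 and 2 shared CpGs. In the Pde4b stretch NP-MTAza was 25.8 points below F-MTAza, a value that is in part fixed by how the stretch was chosen.

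Aza replicate 3, the only usable library of Aza alone, was at 40.6% over Pde4a (Wilson interval 38.1 to 43.2%), 39.9% over Pde4b (37.5 to 42.4%), 60.5% over Pde4c (57.7 to 63.3%) and 40.5% over Pde4d (39.0 to 42.1%). The intervals cover counting error only, and CpGs on a shared read are not independent. Their differences from the PBS means were -10.9, -30.6, -31.6 and -32.2 points. Aza replicate 3 lay below every F-MTAza library at Pde4b, Pde4c and Pde4d and above them at Pde4a. The median level over the 11633 genes was also lower in Aza replicate 3, at 38.1%, than in F-MTAza, at 40.6%. Aza replicate 3 was at least 10 points lower than PBS in 30 of 31 parts, against 78.4% of parts of all genes. It was at least 35 points lower at 163 of 478 CpGs, against 30.6% over the genome. The 31 parts were 21 introns, 3 exon sets and 7 starts, and the background was not matched for this mix. With 1 library there was no test.

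Other genes of the cAMP pathway were followed as a list of 62 genes at their start windows, of which 42 genes with 66 windows could be tested. In F-MTAza against PBS, 32 windows of 22 genes fell and none rose, with 41.8% of all start windows as background. The median change over the list was -13.6 points, against -9.52 points for start windows of all genes. The list had a median PBS level of 53.8%, against 31.0% for start windows of all genes, and the background was not matched for this level. Of the other phosphodiesterases, whose 13 tested windows had a median PBS level of 80.05%, 10 windows fell. Pde9a, which hydrolyses cGMP, fell from 92.3% to 56.9% at its start 3, Pde1b, activated by calcium and calmodulin, from 80.7% to 51.8% and Pde10a, which acts on cAMP and cGMP, from 66.7% to 40.7%. Pde11a fell from 72.6% to 48.6% and the cAMP-specific Pde7b from 42.7% to 19.7% at its start 2.

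Of the adenylate cyclases, which make cAMP, 5 of 9 windows fell, in Adcy7, Adcy3 and Adcy5. Adcy7 start 3 fell from 92.5% to 54.7%, whereas Adcy6 start 1 was at 1.36% in PBS and 0.693% in F-MTAza and did not pass. Of the subunits of protein kinase A, the main effector of cAMP, 2 of 8 windows fell, in the regulatory subunits Prkar1a, from 95.9% to 50.9% at start 3, and Prkar1b, from 79.4% to 53.8%. The start windows of the catalytic subunits Prkaca and Prkacb were at 1.39% and 1.12% in PBS.

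Of the anchors and partners that hold PDE4 and kinase together, 8 of 16 windows fell. Among them Akap13 start 4 fell from 96.8% to 59.7%, Akap1 start 4 from 87.4% to 51.7%, Akap9 start 4 from 96.3% to 68.0%, Akap12 start 1 from 64.0% to 36.9% and Akap7 start 2 from 74.7% to 48.1%. Of the receptors and G proteins 3 of 10 fell, in Gnas and Gnal, which encode stimulatory G protein subunits, and the vasopressin receptor gene Avpr2 could not be tested. Of the effectors 4 of 10 fell, all at Rapgef3, a guanine nucleotide exchange factor that cAMP activates directly, with a largest change from 95.5% to 62.9% at start 2. Of the 66 windows, 16 were below 10% in PBS, and none of these was called. A call needs a loss of 10 points, so a window that low could not be called lower.

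The genes whose levels over the 10 libraries were most like those of each member were found by the root mean square difference among 11633 genes. They were Cbx8, Nup85 and Lhx4 for Pde4a, at 2.70 to 3.17 points, and Unc5cl, Upk3a and Tmem232 for Pde4b, at 1.90 to 2.20 points. For Pde4c they were Nid2, Pygm and Fam129c, at 2.78 to 3.08 points, and for Pde4d they were Creg2, Hspa12a and Prdm16, at 1.83 to 2.07 points.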

How the data were processed

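According to the submitters' processing notes and the study's methods, adapters were removed with Trim Galore 0.4.4 and reads were mapped by Bismark 0.20.1 with Bowtie2, on mm9. Calls from the 2 strands of a CpG were combined, and a floor of 5 reads applied. The deposited tables give methylated over total reads as text and the percent methylated, rounded down in all but at most 58 rows of a library, both made by the authors. Levels were computed from the reads and weighted by them, on GENCODE M1, with Python 3.11.15, numpy 2.4.6, pandas 2.3.3, scipy 1.17.1, pysam 0.24.0 and matplotlib 3.10.9. A level at 7 to 9 reads is imprecise, so results rest on sums of CpGs.

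Starts, exon sets and introns were fitted with limma 3.58.1 in R 4.3.3 after an arcsine square root transform, with 9 libraries in 3 groups and Benjamini-Hochberg adjustment over 41607. Single CpGs needed 5 reads in all 6 libraries of a comparison. Both tests were run on simulated data in which most features were unchanged, unlike here. The simulated CpG reads had no spread between libraries beyond counting error. These runs therefore do not show how the calls behave on the present libraries. A second annotated record named Pde4d was left out. Named were all 4 members with their measured parts, up to 5 genes per pathway subgroup with the largest loss at a called start and the 3 most similar genes per member. Genes named beyond these (Adcy6, Prkaca, Prkacb, Avpr2) were chosen after their values were seen, as were the printed stretches. The members and lists were chosen with earlier results of these data known. Alternatives were depth, CpG set, weighting, scale, minimum, replicate block and each library left out, and an overdispersion correction with a chi-square test was added after seeing the data. Replicate numbers did not pair the libraries.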

Additional observations from a re-analysis of the deposited data

Results flagged for a closer look

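Aza replicates 1 and 2 entered no comparison. Their tables list 35290 and 34646 rows for a CpG already listed, and their levels followed no other library, so the values in them may not be the methylation of the named starts. As listed, they were higher than every PBS library at 2 start windows when all CpGs listed in each library were used. Pde4a start 1 was at 63.3 and 42.2% in them over 218 and 237 reads, against 9.0, 7.73 and 7.45% in PBS. Pde4d start 10 was at 50.7 and 53.8% over 144 and 764 reads, against 34.2, 39.1 and 28.0% in PBS. At the other 5 tested starts no value of these libraries exceeded the highest PBS value, and Pde4d start 11 had no reads in Aza replicate 2.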

How the results depend on the processing

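Of the recomputed values, 203 kept their direction and their side of the threshold, or a count within 1.5 times, 13 moved and 7 changed sign. Values without a test counted as kept when they shifted by no more than the SD between libraries. For exact tests of gene levels and of the Pde4b stretch, only the sign could change, since their p cannot go below 0.10. The lost separation at Pde4a with 10 reads therefore counted as kept. With at least 10 reads per CpG, 10 of 27 tested CpGs were called lower in F-MTAza against PBS and 28 of 97 in NP-MTAza against PBS, 6 and 7 of 7 parts were lower, and 13 of 26 pathway starts. With CpGs in all 9 libraries, 16 and 17 of 20 parts were lower. These settings left fewer features to test. A difference of 25 points gave 110 and 175 lower CpGs. The overdispersion correction gave 0 and 0 with the F test and 51 and 81 with the chi-square test. Leaving out each library in turn gave 57 to 70 and 91 to 105 lower CpGs, 24 to 28 and 26 to 29 lower parts and 31 to 35 pathway starts. These counts, and those of the block below, are given without the share over all features, so they do not compare the family with the genome.

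NP-MTAza against F-MTAza changed sign at Pde4a, Pde4b and Pde4c. At Pde4a, where -1.66 points were found, the difference ran from -4.45 to 0.184 points without 1 library, was 3.93 points with NP-MTAza replicate 3 alone, -9.90 points at 10 reads and -4.57 points in CpGs of all 9 libraries. At Pde4b it was 3.21 points at 10 reads and 1.26 points in CpGs of all 9 libraries. At Pde4c it ran from -3.87 to 1.66 points without 1 library, and was 0.152 points with NP-MTAza replicate 3 alone. The loss of Aza replicate 3 at Pde4a moved to -16.5 points at 10 reads and -15.7 points over every listed CpG. The cause was not tested. The Pde4b stretch had no value at 10 reads or in CpGs of all 9 libraries.

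Same-numbered libraries did not deviate together, with correlations of -0.0399 to 0.0124, and not every library correlated best with its own number. With the replicate number as a block, 29 and 30 of 31 parts were lower, 34 pathway starts were lower and 0 parts were called between NP-MTAza and F-MTAza. The exact sign-flip p of gene levels under the block cannot go below 0.25.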
